A study of Mus musculus with 6 samples.

Results

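The 10 genes described here encode proteins that take up, bind or activate long-chain fatty acids. They are the intracellular binding proteins Fabp1, Fabp2, Fabp4, Fabp5 and Fabp7, the membrane receptor Cd36, and the transport proteins Slc27a1, Slc27a2, Slc27a4 and Slc27a5. They were chosen by gene symbol, and each had 1 probe on the array, so 10 of 16887 named genes are covered and a gene's value rests on a single probe.

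Liver RNA of 6 C57BL/6 mice was hybridised on 2-colour oligonucleotide arrays, with 1 mouse on each array against a common pool. Every mouse entered at the age of 7 weeks and ate the HFC diet, which the titles call a high-fat diet, for 12 days. Starting on day 5, the fenofibrate group (2 mice) received 100 mg/kg by mouth once a day and the lovastatin group (2 mice) 30 mg/kg. The HFC group (2 mice) had the diet with vehicle. Vehicle and the lovastatin dose are taken from the series' design text. The common pool was liver RNA of 6 chow-fed C57BL/6 mice of the same age. Titles and source names put 2 samples in the lovastatin group, and these were followed, although the treatment protocol given for both describes fenofibrate. The mouse was labelled with Cy3 on the fenofibrate arrays and with Cy5 on the lovastatin and HFC arrays, so the drug and the dye cannot be told apart for a single gene in fenofibrate mice.

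Values are log2 ratios, read as mouse over chow pool. The base is taken by convention. The direction is likely but not stated, and rests on the mouse being channel 1 in the labels of each array. A repeated control read 4.83 and 4.95 on the fenofibrate arrays, -9.71 and -4.32 on the lovastatin arrays, and -4.20 and -5.84 on the HFC arrays. Its sign thus changed with the dye of the mouse. A control brighter in 1 dye does so if mouse and pool stand in the same order on every array. What this control holds is not known here, and it does not tell which of mouse and pool is on top. A ratio says nothing of how abundant a transcript is, so levels cannot be set against each other between genes. No intensities were used here, and whether a probe was above background is unknown. The pool counts as 1 control sample and carries no spread between chow mice. In bulk liver RNA, fewer cells of a type and less RNA per cell cannot be told apart.

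In HFC replicate 2, 4 of 8 blocks of array columns hold values that belong to other spots. As deposited, these blocks had correlations of -0.0337 to 0.0274 with the mean of the other arrays, lovastatin replicate 1 left out. For each block the rotation along the rows with the highest such correlation was taken, and this gave 0.297 to 0.311. The second best rotation gave 0.0251 to 0.0448. The displaced probes, 50.3% of all, include 6 of the 10 genes (Fabp1, Fabp5, Cd36, Slc27a2, Slc27a4 and Slc27a5). Their deposited values on that array were set to missing, and the value read from the rotated position is given as the put-back value. The SD over all probes ranged from 0.419 to 1.09 per array, with the widest spread in lovastatin replicate 1. Replicates correlated across features, which are not independent, at 0.402 in the fenofibrate group, 0.189 in the lovastatin group and 0.246 in the HFC group.

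As background, long-chain fatty acids enter liver cells with the help of membrane proteins such as CD36 and the fatty acid transport proteins, which the Slc27a genes encode. The transport proteins carry acyl-CoA synthetase activity, which traps the fatty acid as its CoA ester. Inside the cell, fatty acid-binding proteins carry these hydrophobic ligands between membranes, enzymes and the nucleus. Fabp1 encodes the liver form and Fabp2 the intestinal form. Fabp4 is typical of adipocytes and macrophages, Fabp5 of skin and many other epithelia, and Fabp7 of brain. Fenofibrate activates PPARα, a nuclear receptor that binds fatty acids and is known to control Fabp1, Cd36 and many genes of fatty acid oxidation in rodent liver. Lovastatin inhibits the rate-limiting enzyme of cholesterol synthesis.

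Promoter windows from RefSeq, 300 bases long with 250 before and 50 after the transcription start, were found for 7 of the 10 genes, with 9 windows in all because Slc27a1 has 3. Fabp4, Fabp5 and Slc27a5 had no entry. The windows of Fabp1, Fabp2 and Cd36 are shown because the fenofibrate arrays lay above all others for these genes. They are written 5′ to 3′ on the strand of the gene, on build GRCm38.p6, and capitals mark matches on either strand to AGGTCA, the hexamer recognised by many nuclear receptors, or to a direct repeat of 2 copies of AGGNCA with 1 base between them, the form bound by PPARα with its partner RXR.
Fabp1, chr6:71199629-71199928, plus strand: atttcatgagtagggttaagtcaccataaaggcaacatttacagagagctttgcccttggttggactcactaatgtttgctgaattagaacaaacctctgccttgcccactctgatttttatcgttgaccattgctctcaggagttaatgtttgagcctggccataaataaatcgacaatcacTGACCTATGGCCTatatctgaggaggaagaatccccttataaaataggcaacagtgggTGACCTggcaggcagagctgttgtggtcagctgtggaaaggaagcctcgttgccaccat
Fabp2, chr3:122894822-122895121, plus strand: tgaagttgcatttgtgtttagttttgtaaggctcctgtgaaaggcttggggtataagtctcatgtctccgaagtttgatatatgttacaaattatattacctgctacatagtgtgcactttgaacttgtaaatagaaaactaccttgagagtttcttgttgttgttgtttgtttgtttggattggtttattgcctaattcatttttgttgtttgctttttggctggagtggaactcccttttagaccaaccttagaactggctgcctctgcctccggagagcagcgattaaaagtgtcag
Cd36, chr5:17835847-17836146, minus strand: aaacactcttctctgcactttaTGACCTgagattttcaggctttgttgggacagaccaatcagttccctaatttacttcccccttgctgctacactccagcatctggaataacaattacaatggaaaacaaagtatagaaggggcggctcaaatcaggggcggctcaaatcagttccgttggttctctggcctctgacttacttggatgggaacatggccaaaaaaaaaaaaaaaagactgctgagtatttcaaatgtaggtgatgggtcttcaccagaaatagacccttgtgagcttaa
The direct repeat occurs in 0.381% of 32841 windows over all genes and in 1 of the 9 windows here, that of Fabp1. It reads TGACCTATGGCCT on the strand of the gene, so the match is on the opposite strand, and its first base there is at position -67 from the start. The hexamer occurs in 16.3% of all windows and in 4 of these 9. In Fabp1 it lies at -67, within the direct repeat, and at -9. It also lies at -228 in Cd36, at -220 in Slc27a2 and at -171 in Fabp7. TATAAA, the core promoter motif, occurs in 13.6% of all windows and among these 9 only in that of Fabp1, at -30, where it is left in lower case. The Fabp2 window holds none of the 3 motifs. A match describes letters in the window, not a bound site.

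Fabp2 had the highest ratios of the 10 genes. Fabp2 transcript was 4.03-fold higher in the HFC-fed mice of all 3 groups than in the chow pool, and it was the 1 gene among the 10 to pass the test. Its log2 ratios were 2.58 and 2.26 in fenofibrate mice, 1.58 and 1.35 in lovastatin mice, and 1.80 and 1.69 in mice on the HFC diet alone, with the chow pool at 0 by construction. All 6 mice lay above the pool, and both fenofibrate mice lay above the other 4. The probe lies outside the displaced blocks. Group means were 2.42 ± 0.226 for fenofibrate, 1.47 ± 0.163 for lovastatin and 1.75 ± 0.0778 for HFC alone (SD, n = 2 each), or 5.35-fold, 2.76-fold and 3.35-fold over the pool.

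The dye-balanced comparison gives the fenofibrate arrays and the other arrays equal weight, so a dye effect of the probe cancels. This comparison still mixes the diet with both drugs. In it Fabp2 had a log2 ratio of 2.01 (SE 0.113, 95% interval 1.73 to 2.30), with an adjusted p of 0.00848 by limma. Of 19447 features tested, 10 had a higher value. It was the only one of the 10 genes past 0.05, where 0.566% of all features passed, 0.17% upward and 0.396% downward. The call rests on few mice. Fabp2 kept a value of 1.93 to 2.09 when each array was left out in turn, but its adjusted p became 0.293 without fenofibrate replicate 1, 0.391 without fenofibrate replicate 2, 0.0612 without HFC replicate 1 and 0.056 without HFC replicate 2. Without lovastatin replicate 1 it was 0.00807, and without lovastatin replicate 2 it was 0.00729. If the fenofibrate ratios ran the opposite way, which the labels make less likely, the Fabp2 value would be -0.41 (adjusted p = 0.903).

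**Figure D1:**
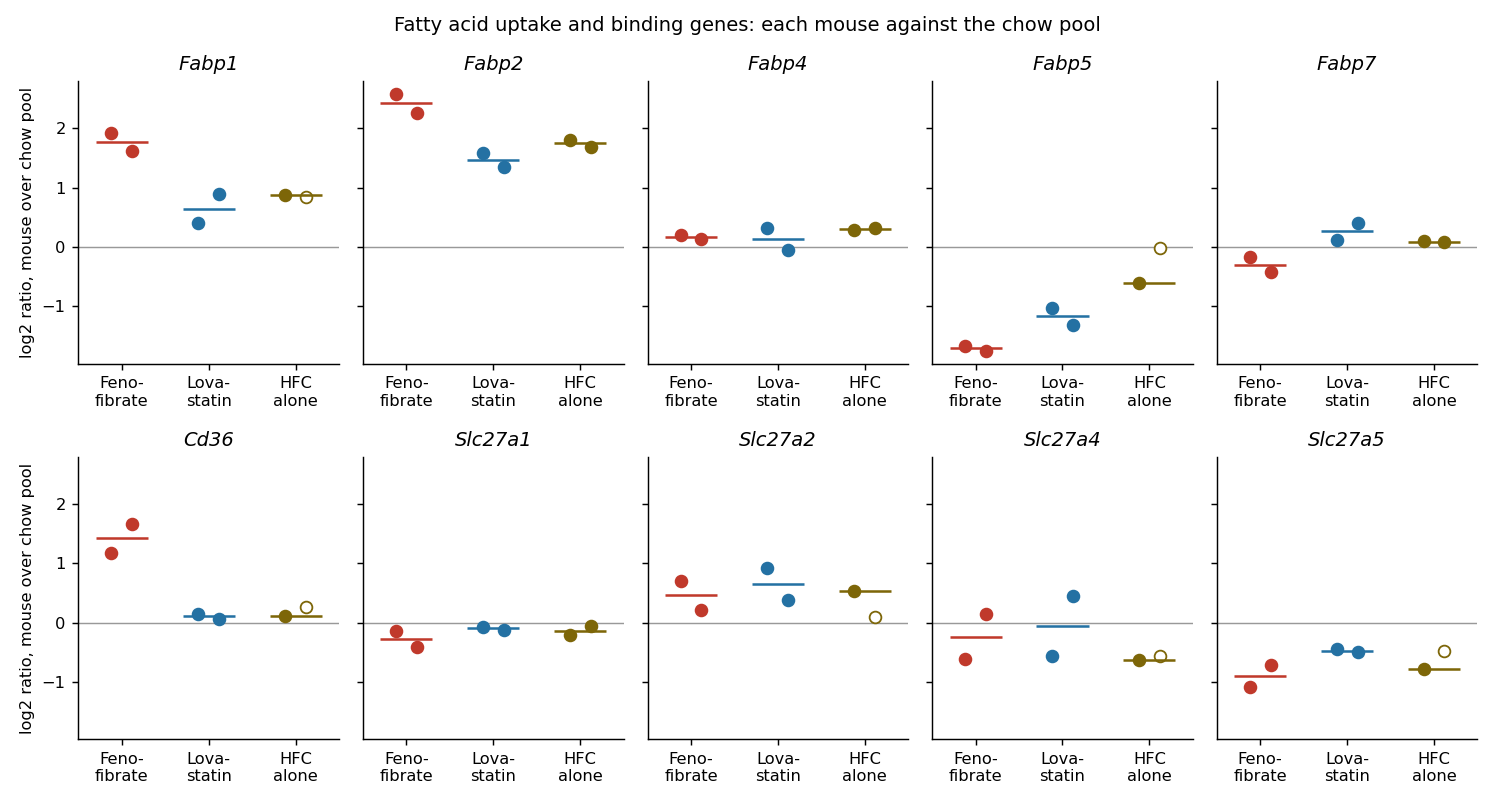
Log2 ratio of each mouse over the chow pool (vertical axis) for the 10 genes, with fenofibrate, lovastatin and HFC alone from left to right in each panel. Filled points are valid arrays, open points are the put-back values of HFC replicate 2, and lines are means of the valid arrays. Fabp2 is above 0 in all 6 mice, and the fenofibrate mice stand above the rest for Fabp1, Fabp2 and Cd36 and below the rest for Fabp5 and Fabp7.

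Fabp1, which encodes the most abundant fatty acid-binding protein of hepatocytes, had log2 ratios of 1.92 and 1.62 in fenofibrate mice, 0.40 and 0.89 in lovastatin mice and 0.87 in HFC replicate 1. The probe is displaced in HFC replicate 2, where the deposited value is 0.03 and the put-back value 0.84. Every valid array lay above the pool, and both fenofibrate mice lay above the others. Group means were 1.77 ± 0.212 for fenofibrate and 0.65 ± 0.346 for lovastatin (SD, n = 2 each), against the single 0.87 for HFC alone. The dye-balanced value of Fabp1 was 1.26 (SE 0.149, 95% interval 0.86 to 1.67), or 2.40-fold, and did not pass (adjusted p = 0.0793, limma). With the displaced blocks put back, which gives the gene a value on all 6 arrays, the result was again 1.26, and Fabp1 passed with an adjusted p of 0.0196. It also passed without lovastatin replicate 1 (adjusted p = 0.0379) and without lovastatin replicate 2 (adjusted p = 0.0332). Its adjusted p was 0.682 without fenofibrate replicate 1, 0.824 without fenofibrate replicate 2 and 0.131 without HFC replicate 2.

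Fabp5 had the lowest ratios of the 10 genes in the drug-treated mice, while Slc27a5 (-0.78) and Slc27a4 (-0.63) were lower in HFC replicate 1. The log2 ratios of Fabp5 were -1.66 and -1.75 in fenofibrate mice, -1.03 and -1.31 in lovastatin mice and -0.60 in HFC replicate 1. On HFC replicate 2 the displaced value is -0.89 and the put-back value -0.02. All 5 valid arrays lay below the pool, with the fenofibrate mice lowest, then the lovastatin mice, then the HFC mouse. Group means were -1.71 ± 0.0636 for fenofibrate and -1.17 ± 0.198 for lovastatin (SD, n = 2 each), or 0.307-fold and 0.444-fold of the pool. The dye-balanced value of Fabp5 was -1.30 (SE 0.128, 95% interval -1.64 to -0.95), or 0.408-fold, with an adjusted p of 0.0522 in limma, just outside the threshold. Fabp5 passed with the displaced blocks put back (-1.22, adjusted p = 0.0236), without lovastatin replicate 1 (adjusted p = 0.0343) and without lovastatin replicate 2 (adjusted p = 0.0294). Its adjusted p was 0.579 without fenofibrate replicate 1, 0.781 without fenofibrate replicate 2 and 0.0883 without HFC replicate 2.

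The other binding proteins stayed close to the pool. Fabp4 ratios ranged from -0.05 to 0.32 over 6 arrays, with means of 0.17 ± 0.0424 in fenofibrate mice, 0.14 ± 0.262 in lovastatin mice and 0.30 ± 0.0283 in HFC mice (SD, n = 2 each). The lovastatin mice spanned the values of the others, and the dye-balanced value was 0.19 (95% interval -0.09 to 0.47, adjusted p = 0.62, limma). Fabp7 was at -0.17 and -0.42 in fenofibrate mice, 0.12 and 0.41 in lovastatin mice, and 0.10 and 0.08 in HFC mice. Both fenofibrate mice lay below the pool and the other 4 mice above it. The dye-balanced value of Fabp7 was -0.06 (95% interval -0.34 to 0.22, adjusted p = 0.878, limma).

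Fabp2, Fabp4 and Fabp5 all lie on chromosome 3. In the RefSeq gene order Fabp4 stands between Fabp9 and Fabp12, which are binding proteins of the same family, and Fabp5 stands between Pag1 and Pmp2, the last a binding protein of myelin. Fabp9 had a dye-balanced log2 ratio of -0.13 (adjusted p = 0.799) and Fabp12 of -0.18 (adjusted p = 0.834), beside 0.19 for Fabp4 and -1.30 for Fabp5. Fabp3, the heart form, was at -0.19 (adjusted p = 0.803), and Fabp6, the ileal bile acid-binding protein, at -0.52 (adjusted p = 0.685, limma throughout).

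Cd36, the fatty acid translocase, was high in the fenofibrate mice and near the pool in the others. Its log2 ratios were 1.17 and 1.67 in fenofibrate mice, 0.15 and 0.07 in lovastatin mice and 0.12 in HFC replicate 1. On HFC replicate 2 the displaced value is -0.19 and the put-back value 0.26. Each fenofibrate mouse exceeded every other valid array by over 1 log2 unit. Group means were 1.42 ± 0.354 for fenofibrate, or 2.68-fold over the pool, and 0.11 ± 0.0566 for lovastatin, or 1.08-fold (SD, n = 2 each). The dye-balanced value, which averages over these unlike groups, was 0.77 (SE 0.143, 95% interval 0.38 to 1.15) and did not pass (adjusted p = 0.181, limma). Cd36 passed in 1 of the other settings tried, with the displaced blocks put back and estimated array weights (0.79, adjusted p = 0.047, limma). With displaced values missing, these weights were 1.6 for both fenofibrate arrays, 0.504 for both lovastatin arrays and 1.24 for both HFC arrays. They thus weight groups and do not tell the 2 arrays of a group apart.

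None of the 4 transport proteins passed in limma in any of the 7 comparisons, and 2 of them, Slc27a2 and Slc27a5, had an unadjusted p under 0.05 in the dye-balanced one. Slc27a5, the liver form FATP5, which also activates bile acids, had log2 ratios of -1.08 and -0.71 in fenofibrate mice, -0.44 and -0.50 in lovastatin mice and -0.78 in HFC replicate 1. On HFC replicate 2 the displaced value is 0.39 and the put-back value -0.47. All valid arrays lay below the pool, the lovastatin mice lay closest to it, and the HFC value fell between the fenofibrate mice. The dye-balanced value of Slc27a5 was -0.76 (SE 0.133, 95% interval -1.12 to -0.40), or 0.59-fold, with an adjusted p of 0.161 in limma.

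Slc27a2, which encodes FATP2, the very long-chain acyl-CoA synthetase of liver and kidney, was at 0.70 and 0.22 in fenofibrate mice, 0.92 and 0.39 in lovastatin mice and 0.53 in HFC replicate 1, with a displaced value of 0.02 and a put-back value of 0.09 in HFC replicate 2. All 5 valid arrays lay above the pool, and the mice of one drug differed by more than the group means. Its dye-balanced value was 0.53 (95% interval 0.09 to 0.97, adjusted p = 0.38, limma). Slc27a1, the FATP1 of muscle and fat, ranged from -0.41 to -0.06 and lay below the pool on all 6 arrays, with a dye-balanced value of -0.20 (95% interval -0.47 to 0.08, adjusted p = 0.604). Slc27a4, the FATP4 of intestine and skin, had mice of one group on both sides of the pool. Its ratios were -0.62 and 0.15 in fenofibrate mice, -0.56 and 0.45 in lovastatin mice and -0.63 in HFC replicate 1, with a displaced value of -0.37 and a put-back value of -0.56 in HFC replicate 2. Its interval was the widest of the 10 genes in the dye-balanced comparison, from -0.92 to 0.34 around -0.29 (adjusted p = 0.735).

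**Figure D2:**
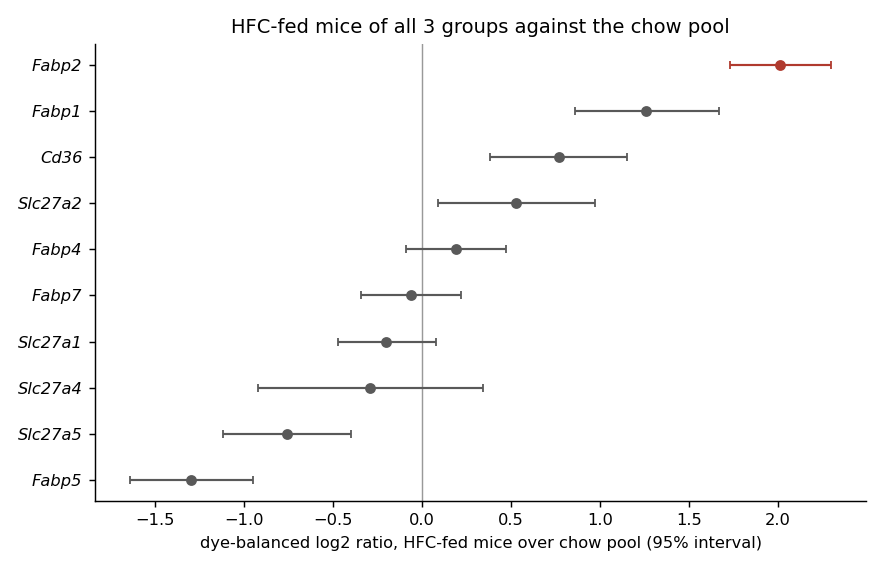
Dye-balanced log2 ratio of HFC-fed mice over the chow pool (horizontal axis) for the 10 genes, ordered by value, with 95% intervals from limma. Fabp2 at 2.01 is drawn in red as the gene that passed. Fabp1, Cd36 and Slc27a2 have intervals above 0, and Fabp5 and Slc27a5 have intervals below 0, without passing after adjustment.

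As a group the 10 genes did not move one way. Of the 10, 7 had the same sign on every valid array, where 14.4% of all features did. Fabp1, Fabp2, Cd36 and Slc27a2 were above the pool throughout (7.23% of all features), and Fabp5, Slc27a1 and Slc27a5 below it (7.12%). In the dye-balanced comparison 5 genes had values above 0 and 5 below, with a median log2 ratio of 0.07, against 0.007 over all features. Within it 6 of the 10 genes had an unadjusted p under 0.05, as did 2104 of 19447 features. Both fenofibrate mice fell outside the range of the other valid arrays for 5 of the 10 genes, where 24.8% of all features showed this. These were Fabp1, Fabp2 and Cd36 above (11.8% of all features) and Fabp5 and Fabp7 below (12.9%). Both counts depend on the direction of the ratios. With the opposite sign for fenofibrate, 1 of the 10 genes, Fabp7, would have the same sign on every valid array (6.6% of all features). The fenofibrate mice would then lie above the others for 3 genes (Fabp5, Slc27a1 and Slc27a5) and below them for 5 (Fabp1, Fabp2, Fabp4, Cd36 and Slc27a2), where 31.5% of all features would lie on either side.

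Against the pool, no group taken alone gave a call in limma, whether among the 10 genes or over all features. For fenofibrate, 0 of the 10 genes passed and 0% of 19470 features did, while 5 of the 10 and 1483 features had an unadjusted p under 0.05. Fabp2 came nearest with an adjusted p of 0.0501, followed by Fabp5 (0.145), Fabp1 (0.184) and Cd36 (0.254). Fabp2 passed in this comparison, as did 23 features in all, when either lovastatin replicate 1 or lovastatin replicate 2 was left out, which enter only through the shared spread. For lovastatin, 0 of the 10 genes and 0% of 19501 features passed, with 3 genes and 2064 features at an unadjusted p under 0.05. Its lowest adjusted p values were 0.194 for Fabp2 and 0.381 for Fabp5. Without lovastatin replicate 2, which leaves the wide array alone in its group, Fabp2 and 3805 features passed. For HFC alone, 0 of the 10 genes and 0% of 19499 features passed, with 3 genes and 921 features at an unadjusted p under 0.05, and Fabp2 had the lowest adjusted p, 0.178. These 3 comparisons share the pool and hold any dye effect of a probe.

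The comparison of fenofibrate with HFC alone asks what the drug adds to the diet. Cd36 differed most, by 1.30 (95% interval 0.29 to 2.31), a 2.46-fold ratio of fenofibrate over HFC mice. This order rests on the likely direction: with the opposite sign for fenofibrate, Cd36 would be at -1.54, and Fabp2 (-4.17), Fabp1 (-2.64) and Fabp5 (2.31) would differ by more. Fabp1 was 0.90 higher (-0.15 to 1.95), Fabp2 0.68 higher (0.02 to 1.33), and Fabp5 was at -1.11 (SE 0.334). None of the 10 genes passed in limma (adjusted p = 1 for each), nor did any feature (0% of 19456), while 3 genes and 559 features had an unadjusted p under 0.05. The other 6 differences lay between -0.39 for Fabp7 and 0.40 for Slc27a4. For the 6 displaced genes the HFC group is the single mouse HFC replicate 1, and the fit assumes that it varies like the other groups. Since the dye differs between these groups, a dye effect cannot be told apart from the drug.

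Fenofibrate minus lovastatin gave a like order, with the same fenofibrate arrays in both comparisons. Cd36 differed by 1.31 (95% interval 0.49 to 2.13, or -1.53 with the opposite sign for fenofibrate), Fabp1 by 1.13 (0.27 to 1.98) and Fabp2 by 0.96 (0.30 to 1.61). Fabp7 was at -0.56 (-1.21 to 0.09) and Fabp5 at -0.54 (-1.27 to 0.20). None of the 10 passed (adjusted p from 0.701 to 0.968, limma), where 0% of 19459 features passed, and 3 genes and 1075 features had an unadjusted p under 0.05. Lovastatin minus HFC alone, the comparison with the same dye on all arrays, gave differences from -0.57 for Fabp5 to 0.58 for Slc27a4. None of the 10 genes passed (adjusted p from 0.972 to 0.997, 0% of 19485 features) or had an unadjusted p under 0.05, which 390 features had. Cd36 differed by -0.01 here, with an SE of 0.375.

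**Figure D3:**
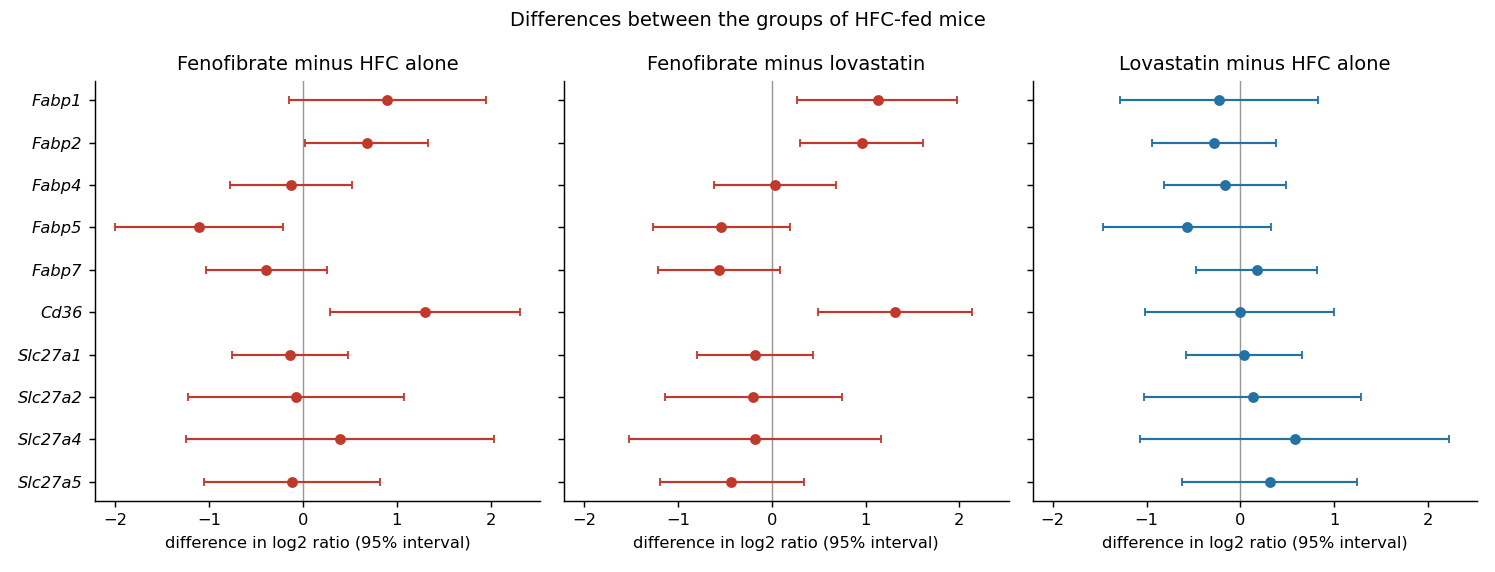
Difference in log2 ratio (horizontal axes) with 95% intervals from limma for the 10 genes, in panels for fenofibrate minus HFC alone, fenofibrate minus lovastatin, and lovastatin minus HFC alone. Cd36 stands farthest right in both fenofibrate panels, at 1.30 and 1.31, and at -0.01 in the lovastatin panel. With the opposite sign for fenofibrate, Cd36 would be at -1.54 and -1.53. No gene passed after adjustment over all features.

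Other genes of fatty acid uptake, activation and transport lay on both sides of the pool. Of 25 listed genes 23 were measured. In the dye-balanced comparison 1 passed upward and 0 downward, where 0.17% and 0.396% of all features did. Of the 23 values, 11 were above 0, against 51.1% of all features, and 12 below, with a median of -0.00. The one that passed was Lpl, lipoprotein lipase, which frees fatty acids from circulating triglyceride, at 1.86 (SE 0.142, adjusted p = 0.02, limma). Lpl ratios were 2.54 and 2.12 in fenofibrate mice, 0.68 and 1.29 in lovastatin mice, and 1.92 and 1.70 in HFC mice. The next by p were the acyl-CoA synthetases Acsl6 (0.51, adjusted p = 0.206) and Acsl3 (-0.99, adjusted p = 0.229) and the sterol carrier Scp2 (0.55, adjusted p = 0.228). Among further transport proteins, Slc27a3 was at -0.16 (adjusted p = 0.804) and Slc27a6 at 0.02 (adjusted p = 0.986). Acsl1 and Lipc were not analysed here.

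PPARα target genes outside the 10 were mostly above the pool. Of 33 listed, 28 were measured. In the dye-balanced comparison 4 passed upward and 0 downward, where 0.17% and 0.396% of all features did. Of the 28 values, 24 were above 0, against 51.1% of all features. Their median was 0.55, against 0.007 over all features. The 4 were Acot1, an acyl-CoA thioesterase (2.89, adjusted p = 0.0105), and the fatty acid omega-hydroxylases Cyp4a14 (2.23, adjusted p = 0.0253), Cyp4a10 (1.29, adjusted p = 0.0342) and Cyp4a31 (1.91, adjusted p = 0.0381, limma). The list's median log2 ratio was 0.74 and 0.95 in fenofibrate mice and 0.47 and 0.26 in lovastatin mice. It was 0.43 in HFC replicate 1 but -0.09 in HFC replicate 2, the last over 16 valid genes, so the HFC mice lay on opposite sides of the pool. Over group means the medians were 0.80 for fenofibrate, 0.34 for lovastatin and 0.29 for HFC alone. In the comparisons of single groups with the pool 0 of the list's genes passed. An unadjusted p under 0.05 in limma was found for 19, 7 and 5 of them. Over all features it was found for 1483 of 19470, 2064 of 19501 and 921 of 19499. Of 13 nuclear receptors and regulators 12 were measured and 0 passed in the dye-balanced comparison. An unadjusted p under 0.05 was found for 2 of them and for 2104 of 19447 features. The receptor gene Ppara itself had a dye-balanced value of 0.01 (adjusted p = 0.988) and Pparg of 0.21 (adjusted p = 0.648). The lowest p values of that list belonged to Nr1i2, the xenobiotic receptor PXR (0.75, adjusted p = 0.144), to the coactivator Ppargc1a (-0.56, adjusted p = 0.297), to the bile acid receptor Nr1h4 (-0.31, adjusted p = 0.489) and to the oxysterol receptor Nr1h3 (-0.31, adjusted p = 0.519).

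**Figure D4:**
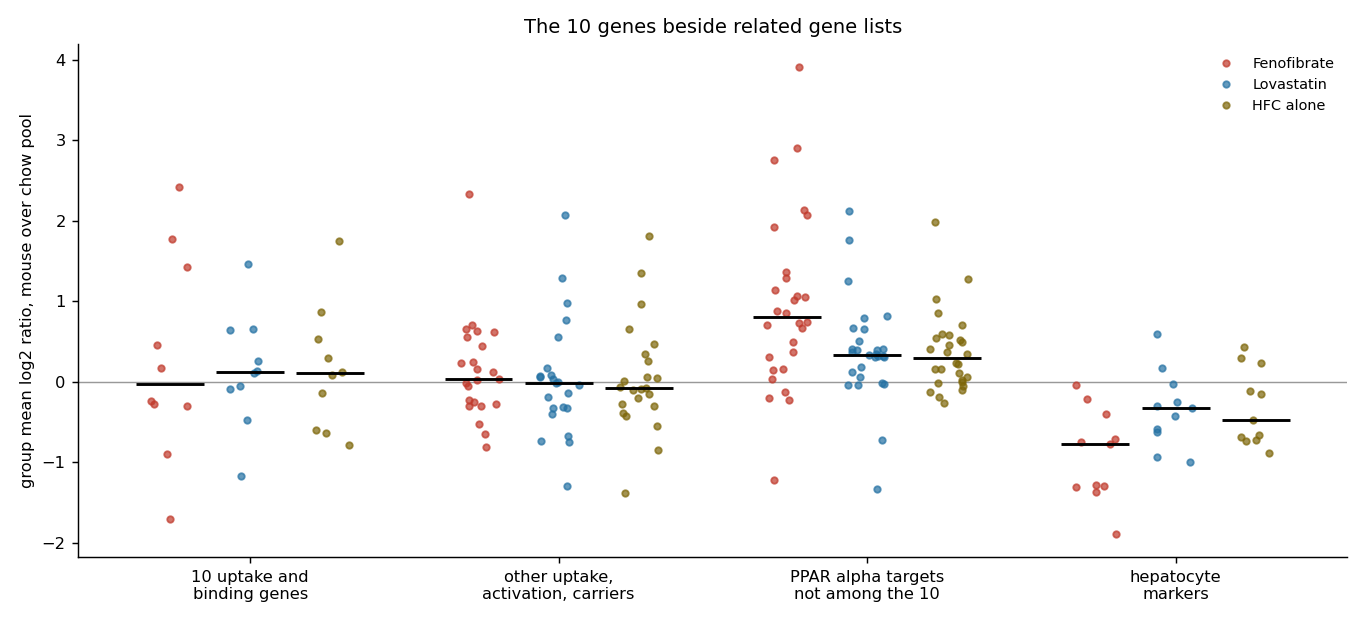
Group mean log2 ratio over the chow pool (vertical axis) of each gene, for the 10 uptake and binding genes, the other uptake, activation and carrier genes, PPARα targets not among the 10, and hepatocyte markers. Colours give fenofibrate, lovastatin and HFC alone from left to right, and black lines are medians over the genes. The PPARα targets have medians of 0.80, 0.34 and 0.29, the last over mice with medians of 0.43 and -0.09, while the 10 genes spread to both sides of 0.

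Markers of the cell types that liver RNA can hold were read beside these results. Of 12 hepatocyte markers 11 were measured. Their mean log2 ratio was -0.86 and -0.97 in fenofibrate mice, -0.32 and -0.35 in lovastatin mice, and -0.38 and -0.09 in HFC mice, the last over 7 genes. In the dye-balanced comparison 10 of the 11 were below 0 and 1 passed, Ahsg (-1.26, adjusted p = 0.0459, limma). Over all features, 51.1% were above 0 there and 0.396% passed downward. The hepatocyte marker means lay lowest in the fenofibrate mice, in which Fabp5 was lowest and Fabp1, Fabp2 and Cd36 were highest. Those arrays differ from the rest in dye. With the opposite sign for fenofibrate, the marker means and Fabp5 would be highest there and Fabp1, Fabp2 and Cd36 lowest. Kupffer cell and macrophage markers, 13 of 15 measured, averaged -0.29 and -0.65 in fenofibrate mice, 0.16 and 0.09 in lovastatin mice, and -0.06 and -0.06 in HFC mice, the last over 8 genes, with 0 passing in the dye-balanced comparison and 1 at an unadjusted p under 0.05. Endothelial markers (12 of 12) averaged between -0.30 and 0.14 per array. Adipocyte markers (10 of 11) averaged between -0.33 and -0.14, but their medians ran from -0.36 to 0.13. These markers did not move together. Pck1 ranged from -2.22 to 0.41 and Car3 from -1.60 to -0.90, while Cidec ranged from 0.21 to 2.06. Enterocyte markers are of interest because Fabp2 is the intestinal form, and 9 of 11 were measured, without Lct and Apoa4. They averaged 0.01 and 0.06 in fenofibrate mice, -0.89 and 0.13 in lovastatin mice, and -0.01 and -0.00 in HFC mice. Single markers lay far apart. In fenofibrate mice Krt20 was at 0.87 and 2.38, and Vil1 at -0.41 and -1.12. On lovastatin replicate 1 Cdx1 was at -3.04 and Vil1 at 1.14. Of the endothelial, adipocyte and enterocyte markers 0 passed in limma in the dye-balanced comparison, and 1, 3 and 1 had an unadjusted p under 0.05. Over all features, 2104 of 19447 had such a p. The part of these cell types in the ratios of the 10 genes was not tested.

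For each gene, the genes with the most similar log ratios were found by the smallest root mean square difference over the valid arrays, as a description. Over 6 arrays and 8446 candidates, Fabp2 was nearest to Lpl (0.376), Unc79 (0.413) and Ifi27l2b (0.443). Over 5 arrays and 16371 candidates, Fabp1 was nearest to Serinc2 (0.147), the replication helicase subunit Mcm6 (0.249) and the omega-hydroxylase Cyp4a12a (0.257). Cd36 was nearest to the muscle fructose bisphosphatase Fbp2 (0.180), the GABA receptor subunit Gabbr1 (0.195) and the glyoxylate reductase Grhpr (0.228). Fabp5 was nearest to the matrix protein gene Ccn2 (0.193), to Olfr1535 (0.208) and to the coagulation factor gene F11 (0.216). For the remaining genes the nearest were Snapc4 for Fabp4 (0.0704), Glt8d2 for Fabp7 (0.0815), Lep for Slc27a1 (0.0473), Rrp1 for Slc27a2 (0.116), Scyl2 for Slc27a4 (0.135) and Utp14b for Slc27a5 (0.108). All arrays share the chow pool.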

How the data were processed

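The deposited table gives a log2 ratio for each spot on each array, as the authors made it. For the scanner software, background correction, normalization, log base and direction, the sources used here give nothing, and base 2 and mouse over pool were taken. Labelling used linear amplification of total RNA, per the labels' protocols. Replicates are separate mice per the labels, and precision is limited by how few arrays there are. Of 22575 spots, 726 without a value and 561 repeated control spots were left out, leaving 21288 probes. The platform annotation gave 1 symbol to 18658 probes, several to 30 and none to 3887 spots, and 18445 probes matched the gene table. Probes of a gene were averaged (1247 genes), which gave 19517 features.

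Displaced values of HFC replicate 2 were set to missing. Group means over all 6 arrays were fitted with limma 3.58.1 in R 4.3.3 (statmod 1.5.0), with 3 residual degrees of freedom, or 2 for displaced genes, and a prior of 2.37. Benjamini-Hochberg adjustment ran over all features, at a threshold of 0.05. The dye-balanced comparison weights fenofibrate by 0.5 and lovastatin and HFC by 0.25 each. The median 95% interval reached 0.412 to either side there, 0.644 for fenofibrate against the pool and 1.03 for fenofibrate against HFC. The fit was tested on simulated data. Python 3.11.15, numpy 2.4.6, pandas 2.3.3 and matplotlib 3.10.9 were used.

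The 10 genes and the lists were chosen with earlier results of these data known. Named beside the 10 are, from each list described, up to 4 genes with the smallest dye-balanced p and any that passed, and the 3 nearest genes by pattern, of which the nearest alone is printed for 6 of the 10 genes. Fabp3, Fabp6, Fabp9, Fabp12, Slc27a3, Slc27a6, Ppara and Pparg were named for their family or role. Other settings changed the treatment of displaced blocks, the probe rule, centring, scaling, filter, prior, array weights, arrays in the fit, pairing, sign and arrays left out.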

Additional observations from a re-analysis of the deposited data

How the results depend on the processing

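Counts are of the 10 genes passing, with all features in brackets. For the dye-balanced comparison (1 gene, 110 features) they were 2 with displaced values as deposited (67), 3 with the blocks put back (191), 0 with arrays scaled to one median absolute deviation (7, Fabp2 adjusted p = 0.0502), 3 without the noisiest 10% of features (344), 3 with array weights (230), 4 with blocks put back and array weights, a setting chosen after seeing the data (354), 0 with the fenofibrate sign turned (0), and from 0 to 3 with one array left out (0 to 824). The genes gained were Fabp5 alone with values as deposited, Fabp1 and Fabp5 otherwise, and also Cd36 where the count was 4. With the replicate number as a block the count was 0 (0 features, Fabp2 2.01, adjusted p = 0.054). Whether the numbers pair the mice is not known. Deviations of same-numbered arrays correlated at 0.0311, -0.0001 and -0.0241, which cannot settle it on arrays this noisy. The block changed no other count. For fenofibrate against the pool (0 genes, 0 features) the counts were 1 with blocks put back (32), 1 with median centring (12), 3 without the noisiest features (100), 3 with array weights (111), 4 with both put-back blocks and weights (176), and 0 to 1 with one array left out (0 to 23). Lovastatin against the pool gave 0 to 1 with one array left out (0 to 3805). HFC against the pool gave 1 without the noisiest features (20) and 1 with put-back blocks and weights (41). With that sign turned, fenofibrate against HFC gave 1 (37) and fenofibrate against lovastatin 1 (60), both Fabp2, at -4.17 and -3.89, and its dye-balanced value was -0.41. Counts over all features also moved where those of the 10 genes did not. Quantile normalization gave 193 in the dye-balanced comparison and 14, 4 and 9 for fenofibrate, lovastatin and HFC against the pool. Values as deposited gave 9 for fenofibrate, put-back blocks 2 for lovastatin and 5 for HFC, and the filter on noisy features 44 for lovastatin. Leaving out either lovastatin array gave 6 for HFC, and leaving out lovastatin replicate 2 gave 1184 between lovastatin and HFC alone and 2033 between the drugs. Turning the sign for the counts of same-sign and non-overlapping genes was chosen after seeing the data. The cause of these changes was not tested. Of 1306 single-gene values under other settings, 1266 kept their side of the threshold and direction or stayed below it. A further 6 lost a call, 31 gained one and 3 reversed. Among the 1266 are 64 values that changed sign without passing under either setting. Without HFC replicate 1 only 4 of the 10 genes keep an HFC value. A fit on the compared arrays alone was not run for the dye-balanced comparison, which uses all arrays.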

Other observations

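Angptl4, a PPARα target whose protein inhibits lipoprotein lipase, was singled out after its values were seen. Its log2 ratios were -1.46 and -0.98 in fenofibrate mice, -1.03 and -1.64 in lovastatin mice, and 0.83 and 0.15 in mice on the HFC diet alone. As read here, the drug-treated mice lay below the chow pool and the HFC mice above it. With the opposite sign for fenofibrate, the fenofibrate mice would lie above both the pool and the HFC mice. The dye also differs between the fenofibrate and HFC arrays, so a dye effect cannot be told apart from that drug. Angptl4 differed by -1.71 (SE 0.389) between fenofibrate and HFC alone and by -1.83 (SE 0.389) between lovastatin and HFC alone, and neither passed in limma (adjusted p = 1 and 0.972). The 2 differences share the HFC arrays.

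Acsl6, an acyl-CoA synthetase, was also singled out after its values were seen. Its log2 ratios were 0.35 and 0.77 in fenofibrate mice, -0.51 and -0.30 in lovastatin mice, and 1.39 and 1.31 in HFC mice. The 3 groups did not overlap as read here, but the fenofibrate arrays differ from the rest in dye. With the opposite sign for fenofibrate, that group would overlap the lovastatin mice. Acsl6 differed by -1.75 (SE 0.272) between lovastatin and HFC alone, where the dye is the same, and did not pass in limma (adjusted p = 0.972).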
